A study of Saccharomyces cerevisiae with 28 samples.

Results

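The comparison described here is the effect of the H3H113N histone mutation in budding yeast (Saccharomyces cerevisiae) that lack the copper transporter gene CTR1, grown in rich glucose medium. Its members are 4 of the 28 poly(A)+ RNA sequencing libraries of the study: H3H113N-dCtr1-YPD replicates 1 and 2, set against dCtr1-YPD replicates 1 and 2. They were chosen by the labelled genotype and medium, and all 4 were made with the KAPA Stranded mRNA-seq kit. The study tests, as its title states, whether the tetramer of histones H3 and H4 is an enzyme that reduces copper. H3H113N replaces a histidine of histone H3 by asparagine at the position in its name, and dCtr1 is the deletion of CTR1, which both compared strains carry. The strains are BY4741, a MATa haploid of the S288C line, and were grown in YPD from an OD600 of 0.2 through 3 to 4 doublings and collected in exponential phase. H3H113N-YPD and WT-YPD, with 2 libraries each and CTR1 intact, were grown and prepared in the same way and are used for the same contrast without the deletion. Per the labels, strains were often not kept in culture for equal times. The labels do not say whether the replicates came from separate clones, so p-values measure only the spread between libraries. That spread was estimated over 26 libraries in 12 groups of the study, with other media and another kit among them. An effect of the histone allele cannot be told apart from other differences between the strains.

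Copper enters yeast as the reduced ion through the plasma membrane transporter Ctr1, after surface metalloreductases such as Fre1 have reduced it. The transcription factor Mac1 turns on CTR1 and FRE1 when copper is scarce. Cytochrome c oxidase, superoxide dismutase Sod1 and the iron oxidase Fet3 need copper, so copper supply is tied to respiration, defence against superoxide and iron uptake. The histidine that H3H113N removes lies near the interface between the H3 molecules of a nucleosome.

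The 4 libraries held between 4815690 and 6407327 reads counted in open reading frames (ORFs). Read levels are given as RPKM, reads per ORF scaled by its length and by the reads of the library. CTR1 had no read in either H3H113N-dCtr1 library, and 0 and 0.128 RPKM in the dCtr1 libraries. In the strains with the gene it had 19.9 and 68.3 RPKM in H3H113N-YPD and 20.3 and 80.6 RPKM in WT-YPD, so the deletion labels hold in all 4 libraries. Log2 CPM, the library-scaled counts, of the replicates correlated across 6592 ORFs with r = 0.986 in H3H113N-dCtr1 and 0.960 in dCtr1. The SD of the log2 difference between replicates was 0.389 in H3H113N-dCtr1 and 0.725 in dCtr1, so the dCtr1 pair was the less alike. No read of the mutated histone base can be checked in counts, so the H3H113N label was not tested.

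H3H113N in cells without CTR1 went with higher transcript levels along all of chromosomes III and V, with lower levels of 10 of 33 phosphate genes, and with higher levels of scattered genes on other chromosomes. Of 6592 ORFs tested, 144 passed an adjusted p of 0.05 in edgeR's quasi-likelihood test with Benjamini-Hochberg adjustment, which is 2.18% of ORFs. Of these, 119 (1.81%) were higher and 25 (0.379%) were lower in H3H113N-dCtr1, and 129 differed at least 2-fold. At an unadjusted p under 0.05, 839 ORFs passed. The median log2 fold change of all tested ORFs was -0.02. The share of higher calls was 82.6%, and it became 93.2% with scaling by library totals, 93.1% with limma on log2(RPKM + 1) and 66.7% with each chromosome centred on its own median. Scaling by library totals alone moved the median of all ORFs to 0.18.

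The calls rest on few libraries. Without H3H113N-dCtr1 replicate 1 or 2, 21 and 20 ORFs were called, and without dCtr1 replicate 1 or 2, 20 and 9 were called. In each of these fits all 144 ORFs had the same direction. Of the 144, 5 were called in every one of the 4 reduced fits, namely PHO11, PHO12, FDC1, THI5 and PET18. Another 4, VTC3, FRM2, CDC10 and NPP1, were called in 3 of them, and 107 were called in none. The range of the log2 fold change over these 4 fits is given beside the main genes.

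Transcripts of chromosome III were raised as a block. Of its 179 tested ORFs, 55 were called, all higher, which is 30.7% against 2.18% of all ORFs. The fitted log2 fold change was above 0 in 176, with a median of 1.11, or 2.16-fold. In 172 of the 179 (96.1%) both H3H113N-dCtr1 libraries had a higher RPKM than both dCtr1 libraries, against 38.5% of all ORFs. The median difference from the mean of the dCtr1 libraries was 1.12 in H3H113N-dCtr1 replicate 1 and 1.12 in replicate 2 (log2, SD 0.0048, n = 2), and -0.01 and 0.01 in the dCtr1 libraries themselves. Both mutant libraries thus stood at the same height over the chromosome, and far outside the range of the dCtr1 pair. In H3H113N with CTR1 intact the same medians were 0.04 and 0.17, and in WT they were -0.04 and 0.05, so chromosome III stood near the level of the dCtr1 libraries in the strains that keep CTR1.

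Chromosome V was raised less, in a similar way. Of its 326 tested ORFs, 27 were called, all higher (8.28%), and 305 had a log2 fold change above 0. The median was 0.68, or 1.60-fold, with 0.68 and 0.76 in the H3H113N-dCtr1 libraries against -0.02 and 0.02 in the dCtr1 libraries (SD 0.057 between the H3H113N-dCtr1 libraries, n = 2). Unlike chromosome III, chromosome V was also high in H3H113N-YPD, at 0.54 and 0.49 against -0.02 and 0.03 in WT-YPD, and the fitted median of that comparison was 0.51. Chromosome II showed the reverse order, with a fitted median of 0.10 here and 0.41 for H3H113N-YPD over WT-YPD. The 14 nuclear chromosomes other than III and V, II among them, had fitted medians between -0.11 and 0.10. The number of copies of each chromosome was not measured here, and no DNA data were used.

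**Figure D1:**
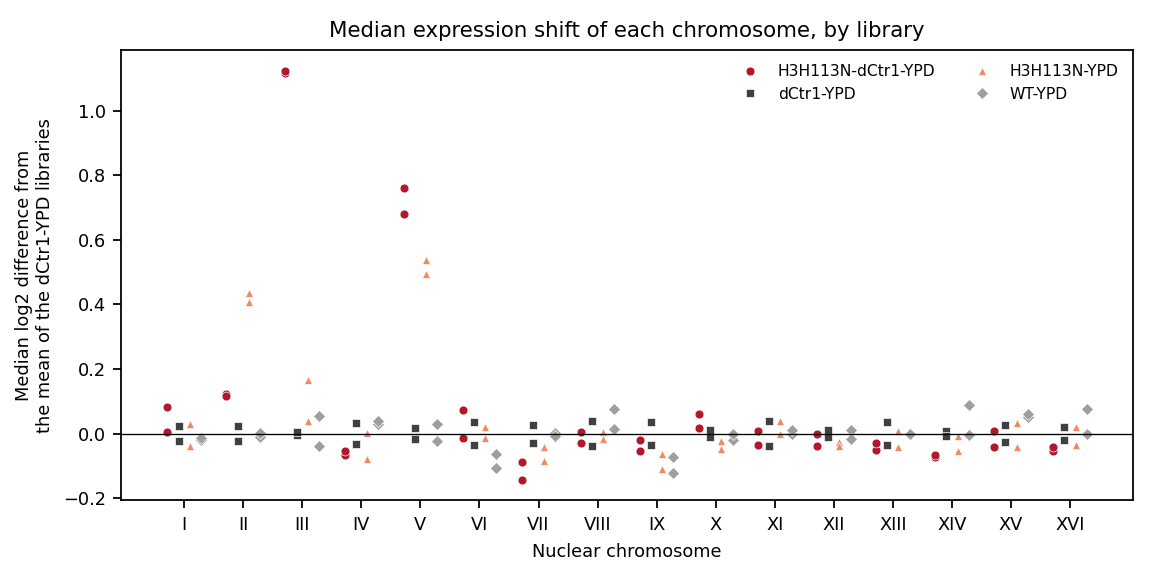
Median log2 difference of the ORFs of each nuclear chromosome from the mean of the dCtr1-YPD libraries, 1 point per library, for H3H113N-dCtr1-YPD, dCtr1-YPD, H3H113N-YPD and WT-YPD (2 libraries each). Chromosome III stands at 1.12 in both H3H113N-dCtr1-YPD libraries and chromosome V at 0.68 and 0.76, while chromosome II is high in H3H113N-YPD.

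The rise of chromosome III was level from end to end. With the ORFs that have a reference position split into 6 stretches of 27 or 28 in chromosome order, the median log2 fold change lay between 1.06 and 1.26, and it was 1.12 on the left arm and 1.10 on the right arm. On chromosome V the 6 stretches of 48 ORFs had medians between 0.58 and 0.78, with 0.69 on the left arm and 0.67 on the right arm. Weakly transcribed ORFs moved more: with the ORFs in 3 equal sets from low to high mean RPKM, the medians were 1.28, 1.11 and 0.95 on chromosome III and 1.02, 0.68 and 0.50 on chromosome V. In H3H113N-YPD over WT-YPD the same sets had medians in the same order, 0.39, 0.18 and -0.14 on chromosome III and 0.84, 0.50 and 0.29 on chromosome V. No such sets were formed on the other chromosomes, so whether this order is particular to chromosomes III and V was not tested. Both chromosomes together held 82 of the 119 higher calls (68.9%). On all other chromosomes 62 of 6087 ORFs were called (1.02%), 37 higher and 25 lower. When each chromosome was centred on its own median in each library, 36 ORFs were called (0.546%), of which 35 are among the 144, and when the ORFs of chromosomes III and V were left out of the fit, 38 were called, all among the 144.

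**Figure D2:**
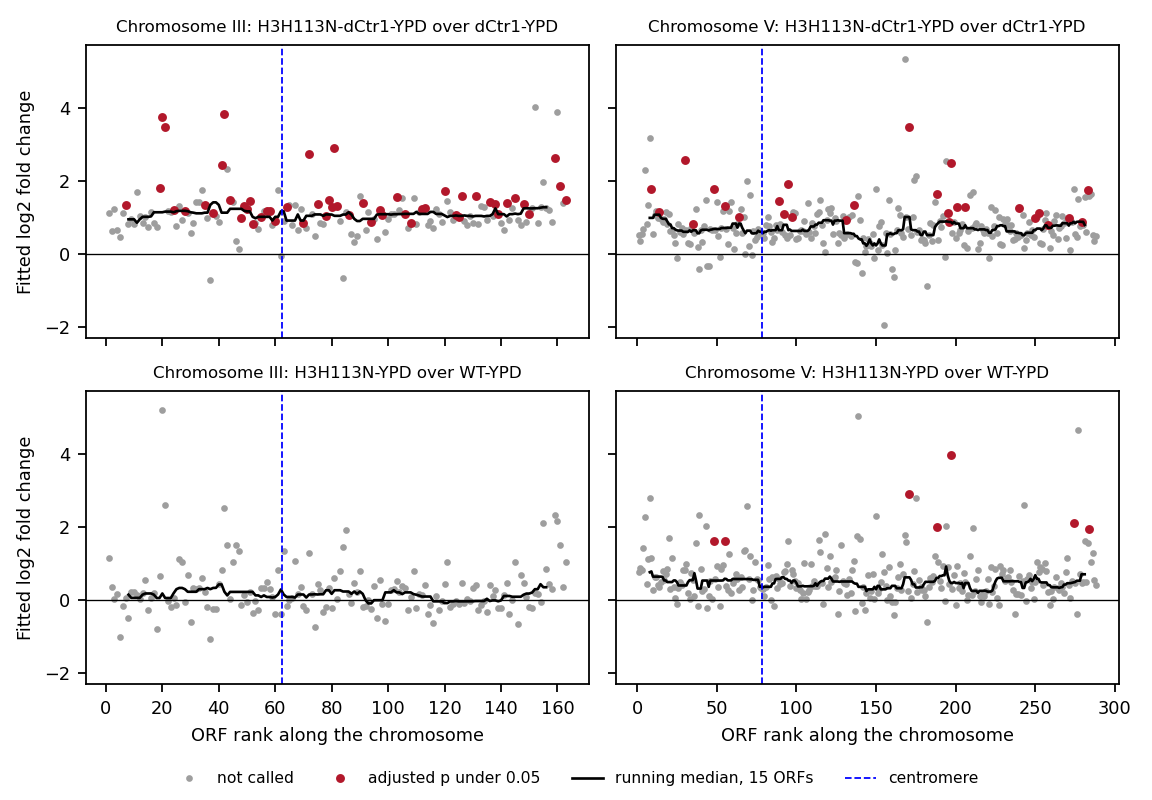
Fitted log2 fold change of each ORF of chromosome III (left) and V (right) by its rank along the chromosome, for H3H113N-dCtr1-YPD over dCtr1-YPD (top) and H3H113N-YPD over WT-YPD (bottom), with called ORFs in red, a running median over 15 ORFs and the centromere as a dashed line. In the top panels the running median stays above 0 along both chromosomes, around medians of 1.11 and 0.68, and in the bottom panels the medians are 0.16 on chromosome III and 0.51 on chromosome V.

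Of the 179 ORFs of chromosome III, 2 were called relative to their chromosome with chromosomes centred, PET18 and HIS4. CDC10, a septin of the bud neck ring, had 303 and 298 RPKM in H3H113N-dCtr1, against 103 and 111 RPKM in dCtr1. Its log2 fold change was 1.28 ± 0.20 (SE; edgeR adjusted p = 0.0038), and relative to the chromosome it was 0.11 (adjusted p = 0.98). NPP1, a nucleotide pyrophosphatase, had 106 and 116 RPKM in H3H113N-dCtr1, against 41.5 and 32.3 RPKM in dCtr1, a log2 fold change of 1.40 ± 0.21 that was 0.22 after centring. The thioredoxin gene TRX3 of mitochondria was also called, at 1.09 ± 0.24 (adjusted p = 0.021), and was -0.076 after centring. CDC10 and NPP1 were picked after their values were seen, as examples of calls that last when a library is left out.

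PET18 was the single ORF of chromosome III called higher relative to its chromosome. This gene, whose product resembles the thiamine-related protein Thi20 in part, had 38.3 and 31.2 RPKM in H3H113N-dCtr1, against 4.49 and 3.61 RPKM in dCtr1. The groups were far apart, and the fitted change was 7.44-fold (log2 2.89 ± 0.35, adjusted p = 0.00086, 2.77 to 3.01 with a library left out). It was still called with chromosomes centred, at 1.72 (adjusted p = 0.019). Without the deletion it had 11.1 and 15.7 RPKM in H3H113N-YPD, against 7.29 and 7.81 RPKM in WT-YPD (log2 0.62, adjusted p = 0.48). The other ORF of chromosome III called after centring was HIS4, a histidine synthesis enzyme named here because it was the single centred call outside the 144. It had 246 and 111 RPKM in H3H113N-dCtr1, against 290.4 and 221 RPKM in dCtr1, values that overlap, with a log2 fold change of -0.71 (adjusted p = 0.56) that was -1.89 relative to the chromosome (adjusted p = 0.044).

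On chromosome III, 6 further ORFs with little RNA in dCtr1 had large called rises. FRM2, a nitroreductase-like protein of the oxidative stress response, had 51.1 and 52.8 RPKM in H3H113N-dCtr1, against 5.35 and 1.34 RPKM in dCtr1 (14.2-fold, log2 3.83 ± 0.66, adjusted p = 0.0075). HBN1, its neighbour and paralog, had 44.8 and 52.5 RPKM in H3H113N-dCtr1, against 10.3 and 5.63 RPKM in dCtr1 (log2 2.44 ± 0.60, adjusted p = 0.038). The mutant libraries were alike and the dCtr1 libraries were not. SPS22, a spore wall gene, had 13.6 and 11.8 RPKM against 1.34 and 0.673 RPKM in dCtr1 (log2 3.48, adjusted p = 0.012), and the small ORF YCL048W-A next to it had 11.1 and 15.1 RPKM against 0.865 and 0.650 RPKM in dCtr1. YCL048W-A rested on 35 reads against 2, a ratio of 17.9 with a counting interval of 4.60 to 154, and it had no read in WT-YPD. ADY2, an acetate transporter, rose 6.73-fold (log2 2.75, adjusted p = 0.026), and YCR102C, an ORF of the alcohol dehydrogenase superfamily, rose 6.18-fold (log2 2.63, adjusted p = 0.017). After centring, these 6 genes had log2 fold changes between 1.27 and 2.66 and adjusted p-values between 0.074 and 0.52, so none was called beyond its chromosome.

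SER3 on chromosome V gave the highest level among the large rises. It encodes a phosphoglycerate dehydrogenase, the first enzyme of serine synthesis, and is known to be silenced in rich medium by transcription of noncoding RNA over its promoter. It had 623 and 575 RPKM in H3H113N-dCtr1, against 49.0 and 45.3 RPKM in dCtr1, with no overlap and little spread in either pair (11.0-fold, log2 3.47 ± 0.70, adjusted p = 0.015). The call was lost without any 1 of the 4 libraries, with log2 values of 3.40 to 3.51, and after centring it was 2.75 (adjusted p = 0.077). In H3H113N-YPD it had 215 and 494 RPKM, against 47.9 and 35.3 RPKM in WT-YPD. Its paralog SER33, looked up after the SER3 values were seen, had 64.9 and 73.1 RPKM in H3H113N-dCtr1 and 80.9 and 90.5 RPKM in dCtr1 (log2 -0.52, adjusted p = 0.36).

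Phosphate genes made up the largest group among the falls. When phosphate is short, the kinase complex of Pho80 and Pho85 is inhibited through Pho81, and the transcription factor Pho4 enters the nucleus and, with Pho2, turns on acid phosphatases, phosphate transporters and the complex that makes polyphosphate. Of 33 listed phosphate genes tested, 10 were called lower and none higher, against 0.379% of all ORFs called lower. In a fit of the 4 compared libraries alone, the 1 ORF called was higher, so none of these 10 was called there. The median log2 fold change of the list was -0.48, against -0.02 for all ORFs. In 15 of the 33 both H3H113N-dCtr1 libraries were below both dCtr1 libraries, against 12.1% of all ORFs. The list had a median of -0.34 with 3 members called lower in H3H113N-YPD over WT-YPD.

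The promoters of the phosphate genes with the largest falls are shown because they carry the core sequence that Pho4 recognises, CACGTG, and that of PHO84, which was not called, is shown beside them. The windows here run from 350 to 51 bases before the start codon, 300 bases each, read from the R64 genome of RefSeq, whose start positions equal those of the study's gene table in 5375 of 5377 ORFs compared. They are shown 5′ to 3′ on the strand of the gene, with CACGTG and the related CACGTT (or its reverse AACGTG) in capitals, both searched on both strands. PHO5, an acid phosphatase, is shown at chrII:431002-431301 (minus strand), PHO12 at chrVIII:551749-552048 (plus strand), PHO89 at chrII:798573-798872 (minus strand), SPL2 at chrVIII:375151-375450 (minus strand), VTC3 at chrXVI:517069-517368 (minus strand) and PHO84 at chrXIII:25851-26150 (minus strand).
PHO5: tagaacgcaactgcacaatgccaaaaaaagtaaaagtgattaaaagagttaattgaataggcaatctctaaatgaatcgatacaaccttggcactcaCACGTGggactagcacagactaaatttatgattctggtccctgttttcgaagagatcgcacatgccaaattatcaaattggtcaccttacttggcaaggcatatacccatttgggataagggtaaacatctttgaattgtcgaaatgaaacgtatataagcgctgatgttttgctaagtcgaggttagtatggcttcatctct
PHO12: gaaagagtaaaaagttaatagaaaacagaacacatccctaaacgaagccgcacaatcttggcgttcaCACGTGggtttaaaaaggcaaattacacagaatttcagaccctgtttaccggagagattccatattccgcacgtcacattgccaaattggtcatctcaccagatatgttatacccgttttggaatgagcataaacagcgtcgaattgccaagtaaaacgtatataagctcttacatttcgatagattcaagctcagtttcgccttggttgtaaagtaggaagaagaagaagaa
PHO89: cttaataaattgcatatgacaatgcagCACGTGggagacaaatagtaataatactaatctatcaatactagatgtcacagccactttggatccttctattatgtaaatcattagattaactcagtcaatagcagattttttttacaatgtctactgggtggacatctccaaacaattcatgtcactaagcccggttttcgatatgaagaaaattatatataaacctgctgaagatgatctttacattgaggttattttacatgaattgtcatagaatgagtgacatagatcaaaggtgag
SPL2: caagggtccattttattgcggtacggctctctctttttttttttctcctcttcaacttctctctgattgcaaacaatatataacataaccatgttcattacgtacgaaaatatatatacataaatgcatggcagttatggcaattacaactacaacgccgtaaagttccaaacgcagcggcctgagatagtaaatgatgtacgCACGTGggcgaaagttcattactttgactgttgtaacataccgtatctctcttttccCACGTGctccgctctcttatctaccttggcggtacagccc
VTC3: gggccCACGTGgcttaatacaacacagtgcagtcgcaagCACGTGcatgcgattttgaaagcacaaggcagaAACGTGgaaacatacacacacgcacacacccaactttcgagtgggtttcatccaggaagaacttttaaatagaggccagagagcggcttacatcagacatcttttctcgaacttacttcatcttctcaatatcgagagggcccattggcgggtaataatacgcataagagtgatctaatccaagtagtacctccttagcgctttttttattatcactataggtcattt
PHO84: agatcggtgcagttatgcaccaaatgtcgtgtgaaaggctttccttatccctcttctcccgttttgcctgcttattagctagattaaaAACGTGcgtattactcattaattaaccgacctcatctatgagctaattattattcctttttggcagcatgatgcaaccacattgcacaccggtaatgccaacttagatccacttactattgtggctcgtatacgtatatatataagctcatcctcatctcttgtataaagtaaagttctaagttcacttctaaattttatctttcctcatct

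The window of PHO11 is identical to that of PHO12 over all 300 bases. Of the 10 phosphate genes called lower, 9 hold CACGTG in this window and all 10 hold CACGTG or CACGTT. Among 5947 tested ORFs with such a window, 240 (4.04%) hold CACGTG and 776 (13.0%) hold either. Over the 32 phosphate genes searched, which leave out the listed gene GPP2, the shares are 56.2% and 68.8%, since several listed genes, such as PHO4 itself and PHO80, have neither. The single called gene with no CACGTG is GDE1, a glycerophosphodiesterase, which holds CACGTT once.

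The acid phosphatase genes PHO11 and PHO12 had the largest falls. PHO12 had 24.0 and 42.6 RPKM in H3H113N-dCtr1, against 290.0 and 423 RPKM in dCtr1, which is 12.4-fold lower (log2 -3.64 ± 0.47, adjusted p = 0.00092, -4.15 to -3.21 with a library left out). PHO11 had 23.5 and 42.8 RPKM in H3H113N-dCtr1, against 266 and 377 RPKM in dCtr1 (log2 -3.49 ± 0.47, adjusted p = 0.0011). These genes are near copies, with 12.8% of the 50-base windows of PHO12 and 11.7% of those of PHO11 unique in the genome, so their values are not independent and the split of reads between them is uncertain. PHO5, the main secreted acid phosphatase, had 74.3 and 103 RPKM in H3H113N-dCtr1, against 218 and 404 RPKM in dCtr1 (log2 -2.05 ± 0.45, adjusted p = 0.021, -2.50 to -1.39 with a library left out). With CTR1 intact PHO5 had 174 and 142 RPKM in H3H113N-YPD and 89.3 and 192 RPKM in WT-YPD, values that overlap (log2 -0.07, adjusted p = 0.97). PHO5 was thus not among the 3 phosphate genes called lower in H3H113N-YPD over WT-YPD, where the list median was -0.34. PHO3, the acid phosphatase gene beside PHO5, was at -0.30 (adjusted p = 0.95). The vacuolar phosphatase gene PHO8 had 98.7 and 113.1 RPKM, against 189 and 202 RPKM in dCtr1, and narrowly missed the threshold (log2 -1.09, adjusted p = 0.051).

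Of the phosphate transporters, PHO89 was called. PHO89, which imports phosphate together with sodium, had 4.4 and 7.81 RPKM in H3H113N-dCtr1, against 40.8 and 68.0 RPKM in dCtr1, 10.4-fold lower (log2 -3.37 ± 0.55, adjusted p = 0.0048). PHO84, the high-affinity importer, had 86.6 and 267 RPKM in H3H113N-dCtr1, against 1165 and 363 RPKM in dCtr1. Its groups did not overlap, each pair spread widely, and it missed the threshold (log2 -2.24 ± 0.63, adjusted p = 0.072, -3.31 to -1.35 with a library left out). SPL2, an inhibitor of low-affinity phosphate transport, had 11.9 and 23.5 RPKM in H3H113N-dCtr1, against 112 and 64.6 RPKM in dCtr1 (log2 -2.46 ± 0.52, adjusted p = 0.018). The low-affinity transporters PHO90 and PHO91 were at -0.11 (adjusted p = 0.97) and -0.48 (adjusted p = 0.52). The low-affinity transporter PHO87 and the glycerophosphoinositol importer GIT1 lie on chromosome III and were above 0, at 1.10 (adjusted p = 0.058) and 1.97 (adjusted p = 0.077), and after centring they were at -0.077 and 0.80.

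The polyphosphate polymerase of the vacuole was lower in 3 called subunits. VTC3 had 58.1 and 111 RPKM in H3H113N-dCtr1, against 373 and 302 RPKM in dCtr1 (4.52-fold lower, log2 -2.18 ± 0.35, adjusted p = 0.0048). VTC4, the catalytic subunit, was at -1.35 ± 0.34 (adjusted p = 0.044) and VTC2 at -1.01 ± 0.21 (adjusted p = 0.018). PHO81, the inhibitor of the Pho80 and Pho85 kinase, had 20.3 and 24.2 RPKM in H3H113N-dCtr1, against 60.5 and 29.0 RPKM in dCtr1 (log2 -1.17 ± 0.27, adjusted p = 0.026). GDE1 was at -0.89 ± 0.20 (adjusted p = 0.024). The inositol pyrophosphate synthase gene VIP1 was at -0.84 (adjusted p = 0.058). PHO4 itself overlapped between groups, with 52.9 and 39.2 RPKM in H3H113N-dCtr1 and 67.4 and 39.1 RPKM in dCtr1 (log2 -0.39 ± 0.37, adjusted p = 0.82). Of the 10 called, PHO11 and PHO12 remained called in all 4 fits with a library left out and VTC3 in 3, while SPL2, VTC4, VTC2 and GDE1 were called in none of them.

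**Figure D3:**
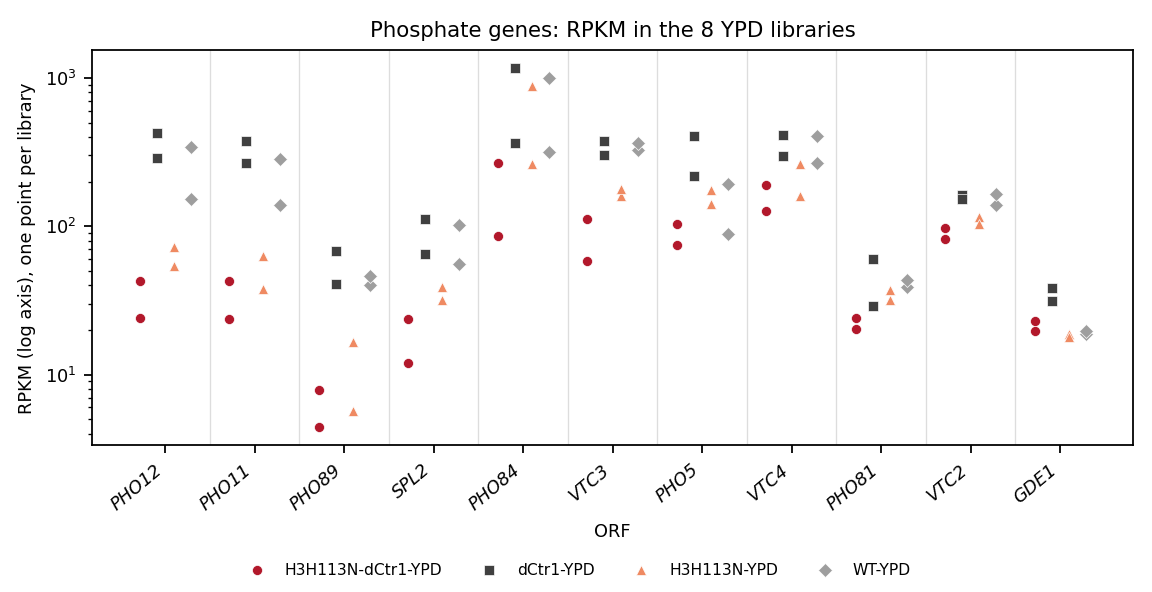
RPKM on a log axis of the 10 phosphate genes called lower and of PHO84, 1 point per library, for H3H113N-dCtr1-YPD, dCtr1-YPD, H3H113N-YPD and WT-YPD. In each of these genes both H3H113N-dCtr1-YPD points lie below both dCtr1-YPD points, as with PHO89 at 4.4 and 7.81 against 40.8 and 68.0.

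Away from chromosomes III and V, the largest rises were of genes with little RNA in dCtr1. Ranking by fold change, with a least RPKM set only in the higher group, favours such genes. Their low level in dCtr1 is thus not a result. ANS1, a putative cell wall protein, had 37.6 and 19.2 RPKM in H3H113N-dCtr1, against 0.865 and 0.325 RPKM in dCtr1. This is 144 reads against 3, a ratio of 49.2 with a counting interval of 16.5 to 241, and the fitted log2 fold change was 5.31 ± 0.92 (adjusted p = 0.01). PAU5, a seripauperin of the cell wall that yeast makes mostly without oxygen, had 27.8 and 43.6 RPKM in H3H113N-dCtr1, against 2.25 and 1.69 RPKM in dCtr1 (15.5-fold, log2 3.96 ± 0.79, adjusted p = 0.014). PDC6, the minor pyruvate decarboxylase, had 10.9 and 12 RPKM in H3H113N-dCtr1, against 2.70 and 0.830 RPKM in dCtr1 (log2 2.57, adjusted p = 0.022). In all 3 the groups were far apart. H3H113N-YPD also stood above WT-YPD, at 12.1 and 17.1 against 0.492 and 0.405 RPKM for ANS1, and at 30.8 and 36.0 against 1.92 and 2.11 RPKM for PAU5.

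Of 32 seripauperins and anaerobic mannoproteins tested, 3 were called higher (PAU5, PAU2 and PAU23) and none lower, against 1.81% of ORFs called higher, with a list median of 1.74. In H3H113N-YPD over WT-YPD 3 were also called higher, with a list median of 1.40. In 28 of the 32 both H3H113N-dCtr1 libraries were above both dCtr1 libraries, against 38.5% of all ORFs. PAU2 on chromosome V had 19.8 and 24.9 RPKM in H3H113N-dCtr1, against 5.15 and 1.72 RPKM in dCtr1 (log2 2.56, adjusted p = 0.036). PAU23 had 19.2 and 21.5 RPKM in H3H113N-dCtr1, against 2.21 and 5.83 RPKM in dCtr1 (log2 2.04, adjusted p = 0.011). The family is closely related in sequence, with 65.0% of the windows of PAU2 unique, so its members share reads to an unknown extent. Of the anaerobic mannoproteins in the list, DAN1 had a log2 fold change of 0.91 (adjusted p = 0.69) and TIR1 of 0.81 (adjusted p = 0.68).

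The thiamine gene THI5 was among the 5 calls that lasted in all 4 reduced fits. It belongs to a family of near-identical enzymes that make the pyrimidine part of thiamine, with 15% of its windows unique. THI5 had 17.3 and 19.1 RPKM in H3H113N-dCtr1, against 2.84 and 1.53 RPKM in dCtr1 (7.40-fold, log2 2.89 ± 0.37, adjusted p = 0.00092). The other family members, named after the THI5 values were seen, were also called: THI11 at 1.93 (adjusted p = 0.007), THI12 at 2.53 (adjusted p = 0.011) and THI13 at 2.26 (adjusted p = 0.0081). THI4, which makes the thiazole part and shares no such copies, had 18.8 and 17.4 RPKM in H3H113N-dCtr1, against 4.87 and 2.39 RPKM in dCtr1 (log2 2.16, adjusted p = 0.025). With CTR1 intact THI5 had 10.7 and 10.8 RPKM in H3H113N-YPD, against 0.693 and 0.19 RPKM in WT-YPD.

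**Figure D4:**
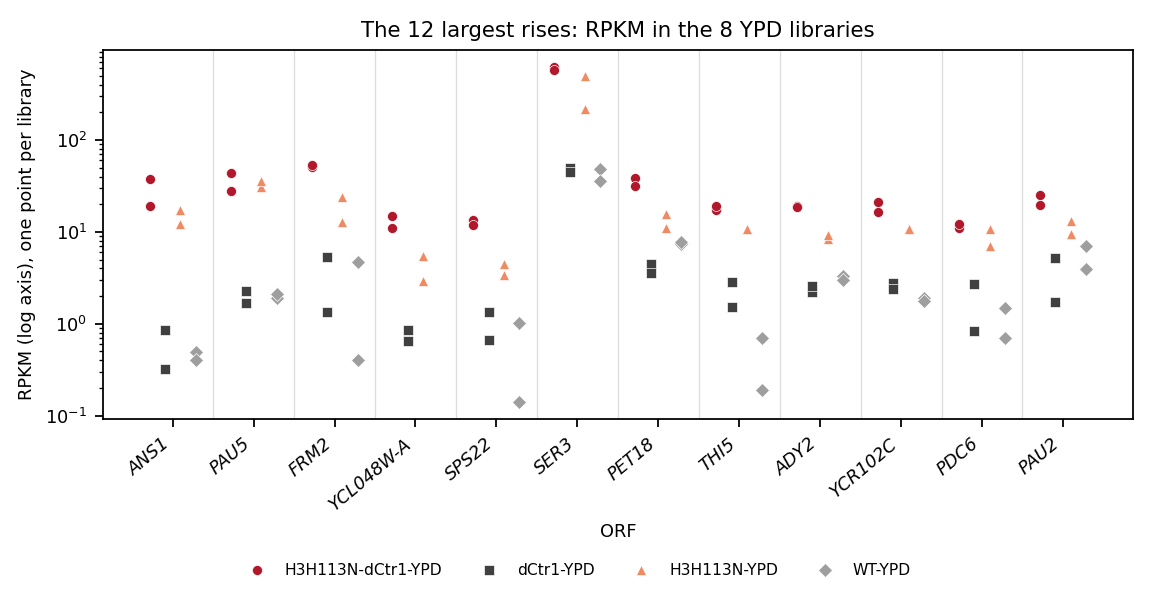
RPKM on a log axis of the 12 ORFs with the largest called rises, 1 point per library, for H3H113N-dCtr1-YPD, dCtr1-YPD, H3H113N-YPD and WT-YPD. The 2 WT-YPD libraries of YCL048W-A had no read and have no point. SER3 stands highest, at 623 and 575 in H3H113N-dCtr1-YPD against 49.0 and 45.3 in dCtr1-YPD.

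Genes of oxidative stress and redox balance gave calls in both directions, most of them higher. Of 47 tested, 5 were called higher (FRM2, HBN1, AAD6, AAD16 and TRX3) and 1 lower (TRX1), against 1.81% and 0.379% of all ORFs, with a median of 0.41 and 35 above 0. FRM2, HBN1 and TRX3 lie on chromosome III and were not called with chromosomes centred. In 31 of the 47 both H3H113N-dCtr1 libraries were above both dCtr1 libraries, against 38.5% of all ORFs. In 4 they were below, against 12.1% of all ORFs, and 6 of the 47 lie on chromosomes III and V. AAD6, a putative aryl-alcohol dehydrogenase, had 72.3 and 53.7 RPKM in H3H113N-dCtr1, against 16.9 and 9.28 RPKM in dCtr1 (log2 2.09 ± 0.37, adjusted p = 0.0081), and the adjoining AAD16 was at 2.25 (adjusted p = 0.018). TRX1, a cytosolic thioredoxin, had 191 and 160.1 RPKM in H3H113N-dCtr1, against 411 and 431 RPKM in dCtr1 (2.77-fold lower, log2 -1.47 ± 0.22, adjusted p = 0.0034). The pairs are tight and far apart, and TRX1 was at 215 and 183 RPKM in H3H113N-YPD against 417 and 422 RPKM in WT-YPD. Key members that were not called were the peroxiredoxin TSA1 (log2 0.79, adjusted p = 0.5), the old yellow enzyme OYE3 (1.56, adjusted p = 0.37) and the flavohemoglobin YHB1 (-0.72, adjusted p = 0.37). The pentose phosphate enzyme TAL1, a transaldolase, had 296 and 286 RPKM in H3H113N-dCtr1, against 623 and 583 RPKM in dCtr1 (log2 -1.25 ± 0.26, adjusted p = 0.018). TAL1 was the single call among 17 genes of that pathway, against 0.379% of all ORFs called lower, and ZWF1 was at -0.95 (adjusted p = 0.37).

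Mating-type genes gave 1 lower call among those specific to MATa cells and 1 higher call among those specific to alpha cells. In 7 of 7 tested MATa-specific genes both H3H113N-dCtr1 libraries were below both dCtr1 libraries, against 12.1% of all ORFs, with a list median of -1.17. The list median was -0.09 in H3H113N-YPD over WT-YPD. AGA2, a subunit of the mating agglutinin of a cells, was called, with 18.7 and 18.7 RPKM in H3H113N-dCtr1, against 75.5 and 56.8 RPKM in dCtr1 (log2 -2.00 ± 0.48, adjusted p = 0.032). The mating pheromone gene MFA2 had 36.8 and 28.1 RPKM against 151 and 124 RPKM in dCtr1 and was not called (log2 -2.28 ± 0.71, adjusted p = 0.11). Nor were MFA1 (-1.04, adjusted p = 0.84), the pheromone receptor STE2 (-1.34, adjusted p = 0.22) and the protease BAR1 (-0.97, adjusted p = 0.47). GPA1, the alpha subunit of the G protein of the pheromone response, had 31.3 and 21.0 RPKM in H3H113N-dCtr1, against 80.5 and 46.7 RPKM in dCtr1 (log2 -1.46 ± 0.33, adjusted p = 0.026). It was the single call among 15 haploid-specific and pheromone response genes, against 0.379% of all ORFs called lower. That list had a median of -0.54 with 5 genes above 0. Both H3H113N-dCtr1 libraries were above both dCtr1 libraries in 5 and below in 7, against 38.5% and 12.1% of all ORFs. In H3H113N-YPD over WT-YPD the list median was -0.17, with 3 called higher.

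The alpha-specific list had a median of 1.09 with 1 of 4 called higher, against 1.81% of all ORFs, and a median of 1.52 with 2 called higher in H3H113N-YPD over WT-YPD. STE3, the receptor for a-factor, was the called one, with 11.3 and 12 RPKM in H3H113N-dCtr1, against 4.26 and 3.09 RPKM in dCtr1 (log2 1.48 ± 0.29, adjusted p = 0.014). SAG1, the alpha agglutinin, was at 0.70 (adjusted p = 0.12) and MF(ALPHA)2 at -0.05 (adjusted p = 0.98). MF(ALPHA)1, the main alpha-factor gene, had 6.18 and 2.31 RPKM in H3H113N-dCtr1, against 1.25 and 0 RPKM in dCtr1, on 22 reads against 3, a ratio of 7.51 with a counting interval of 2.26 to 39.2. Among the receptors, STE2, made in MATa cells, was at 115 and 76.6 RPKM in H3H113N-dCtr1, above STE3 in the same libraries, whereas AGA2 at 18.7 RPKM in both was close to STE3. The silent and active mating loci lie on chromosome III. HMRA1 there had 107 and 90.6 RPKM in H3H113N-dCtr1, against 25.1 and 43.4 RPKM in dCtr1 (log2 1.28, adjusted p = 0.24), which was 0.11 relative to the chromosome, and the loci hold near copies of each other, so their reads cannot be assigned with certainty. NEJ1, a DNA end-joining factor made in haploids, had 6.78 and 7.82 RPKM in H3H113N-dCtr1, against 18.8 and 17.0 RPKM in dCtr1 (log2 -1.48 ± 0.31, adjusted p = 0.018). Whether these values move with the raised level of chromosome III was not tested.

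The other falls named by size were FDC1 and KEI1. FDC1, a decarboxylase of phenylacrylic acids, had 15.9 and 16.1 RPKM in H3H113N-dCtr1, against 49.2 and 41.9 RPKM in dCtr1, a fall that stayed called in every reduced fit (3.26-fold lower, log2 -1.70 ± 0.25, adjusted p = 0.0028, -1.74 to -1.67 with a library left out). It was at 22.5 and 25.5 RPKM in H3H113N-YPD, against 39.1 and 41.3 RPKM in WT-YPD (log2 -0.95, adjusted p = 0.065). KEI1, a subunit of the enzyme that makes inositol phosphorylceramide, had 19.7 and 13.8 RPKM in H3H113N-dCtr1, against 37.4 and 37.7 RPKM in dCtr1 (log2 -1.38 ± 0.32, adjusted p = 0.027). CTS1, the chitinase that separates daughter cells, had 329 and 419 RPKM in H3H113N-dCtr1, against 786 and 729.6 RPKM in dCtr1 (log2 -1.22 ± 0.29, adjusted p = 0.033). CTS1 was the single lower call among 34 cell wall genes and ANS1 the single higher one, against 0.379% and 1.81% of all ORFs.

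Copper and iron genes gave no call. Of 21 copper uptake and handling genes tested, CTR1 itself left out, 0 were called by edgeR or DESeq2 and 1 had an unadjusted p under 0.05, with a median log2 fold change of 0.10. In 13 of the 21 both H3H113N-dCtr1 libraries were above both dCtr1 libraries, against 38.5% of all ORFs. In 1 they were below, against 12.1% of all ORFs. FRE1 had 292 and 304 RPKM in H3H113N-dCtr1 and 266 and 114 RPKM in dCtr1 (log2 0.50 ± 0.66, adjusted p = 0.89), and FRE7, another metalloreductase, had 68.0 and 83.6 RPKM in H3H113N-dCtr1 and 35.3 and 59.6 RPKM in dCtr1 (log2 0.44 ± 0.39, adjusted p = 0.8). Neither pair overlapped, and neither difference passed the test. Both were far lower in the strains with CTR1, with FRE1 at 15.7 and 75.1 RPKM in H3H113N-YPD and 19.4 and 59.1 RPKM in WT-YPD. CTR3, the second surface importer, was at 0.53 (adjusted p = 0.7), the vacuolar exporter CTR2 at -0.43 (adjusted p = 0.66) and MAC1 at 0.34 (adjusted p = 0.49). SOD1 had 1379 and 1672 RPKM in H3H113N-dCtr1, and 1228 and 851 RPKM in dCtr1 (log2 0.37 ± 0.35, adjusted p = 0.82), and its copper chaperone gene CCS1 was at -0.06 (adjusted p = 0.97).

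The metallothionein genes CUP1-1 and CUP1-2 are copies of each other, at log2 -0.23 and -0.28 (adjusted p = 0.97 each). CUP1-1 had 242 and 216 RPKM in H3H113N-dCtr1 and 242 and 223 RPKM in dCtr1, while the replicates of H3H113N-YPD, at 2628 and 195 RPKM, differed widely. Of 34 iron uptake and scarcity genes, 0 were called by edgeR or DESeq2 and 0 had an unadjusted p under 0.05, with a median of -0.01. The copper-dependent oxidase FET3 had 112 and 167 RPKM in H3H113N-dCtr1, inside the 516 and 92.8 RPKM of the dCtr1 pair (log2 -1.24 ± 0.70, adjusted p = 0.52), and its partner permease FTR1 was at 0.42 (adjusted p = 0.89). The cell wall mannoproteins FIT2 and FIT3, which hold iron carriers, were at -0.95 (adjusted p = 0.83) and -1.03 (adjusted p = 0.71). For FET3, FIT2 and FIT3 the dCtr1 replicates lay on either side of the H3H113N-dCtr1 pair. In 10 of the 34 iron genes both H3H113N-dCtr1 libraries were above both dCtr1 libraries, and in 1 they were below, against 38.5% and 12.1% of all ORFs.

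Respiration, stress and growth lists gave few calls. None of the 10 cytochrome c oxidase, 9 cytochrome bc1 and 17 nuclear ATP synthase genes tested was called by edgeR or DESeq2, with list medians of -0.16, 0.21 and 0.24 and with 0, 1 and 0 members at an unadjusted p under 0.05. Among them COX5B was at -0.33 and CYT1 at 0.24 (adjusted p = 0.96 each), and the mitochondrially encoded COX1 was at 0.85 (adjusted p = 0.9). IDP2, a cytosolic isocitrate dehydrogenase, was the 1 call among 23 citric acid cycle genes, at 1.63 (adjusted p = 0.03), against 1.81% of all ORFs called higher. Of 24 stationary phase genes 4 were called higher, against 1.81% of all ORFs, with a list median of 0.59, while in H3H113N-YPD over WT-YPD 5 were called higher with a median of 1.32. The 4 were MOH1 (log2 1.81, adjusted p = 0.018), FDH1 (1.87, adjusted p = 0.012), SNZ1 (1.66, adjusted p = 0.021) and SPG5 (1.28, adjusted p = 0.039). MOH1, a stationary phase gene of unknown biochemical role, had 55.1 and 63.0 RPKM in H3H113N-dCtr1, against 15.9 and 13.5 RPKM in dCtr1. Among 27 heat shock chaperone genes SSA3 was the 1 call, at 1.68 (adjusted p = 0.043), against 1.81% of all ORFs called higher. The list median was 0.19, with 19 above 0. SSA4 on chromosome V (2.54, adjusted p = 0.2), HSP26 (1.69, adjusted p = 0.45) and HSP12 (1.25, adjusted p = 0.77) were not called. Others in the list were below 0, such as HSP42 at -0.96 and HSP104 at -0.86, neither of them called. HSP12 had 488 and 221 RPKM in H3H113N-dCtr1, and 263 and 14.7 RPKM in dCtr1, a spread between the dCtr1 libraries that exceeds the difference between groups.

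Single calls came from several further lists. The hexose transporter genes HXT9 (log2 1.57, adjusted p = 0.044) and HXT13 (1.78, adjusted p = 0.019) were higher, 2 of 21 tested, against 1.81% of all ORFs. HXT13 lies on chromosome V and was at 1.08 (adjusted p = 0.34) with chromosomes centred. ARO10, a decarboxylase of aromatic keto acids, had 35.7 and 57.6 RPKM in H3H113N-dCtr1, against 13.5 and 7.12 RPKM in dCtr1 (log2 2.02, adjusted p = 0.012). With SER3 it made 2 higher calls among 62 amino acid synthesis genes, against 1.81% of all ORFs. That list had a median of -0.49, with 18 genes above 0. Both H3H113N-dCtr1 libraries were below both dCtr1 libraries in 20 of the 62 and above in 12, against 12.1% and 38.5% of all ORFs. The regulator GCN4 lies on chromosome V and was at 0.22 (adjusted p = 0.85), and at -0.50 with chromosomes centred. DAL80, a repressor of nitrogen genes, was higher at 2.76 (adjusted p = 0.044), the 1 call among 28 genes under nitrogen repression, against 1.81% of all ORFs. The sporulation gene LDS1 was higher at 3.54 (adjusted p = 0.018), on 8.19 and 2.52 RPKM in H3H113N-dCtr1, against 0.425 and 0.319 RPKM in dCtr1. It was the 1 call of 25 meiosis and sporulation genes, against 1.81% of all ORFs called higher. Their median was 0.57, with 23 above 0, and 1.23 with 3 called higher in H3H113N-YPD over WT-YPD. Both H3H113N-dCtr1 libraries were above both dCtr1 libraries in 20 of the 25 and below in 2, against 38.5% and 12.1% of all ORFs. Among the uncalled ones were DIT1 (1.33, adjusted p = 0.057), SPS4 (1.41, adjusted p = 0.37), SPR3 (1.30, adjusted p = 0.31), SPS1 (0.87, adjusted p = 0.47), SPO11 (0.57, adjusted p = 0.75), NDT80 (0.37, adjusted p = 0.72) and IME1 (-0.37, adjusted p = 0.88).

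Most ribosomal protein genes had lower levels in H3H113N-dCtr1, and none was called by edgeR. In 125 of 137 both H3H113N-dCtr1 libraries were below both dCtr1 libraries, against 12.1% of all ORFs, and the median log2 fold change was -0.73, yet 0 were called by edgeR, against 0.379% of all ORFs called lower. At an unadjusted p under 0.05 there were 79, and DESeq2 called 5. In H3H113N-YPD over WT-YPD the list median was -0.56. Ribosome assembly genes had a median of -0.25 and proteasome genes of -0.22, with 0 edgeR calls among 65 and 34. At an unadjusted p under 0.05 there were 3 and 6, DESeq2 called 0 and 1, and the proteasome regulator RPN4 was at 1.10 (adjusted p = 0.12). The labels give no growth rate per library. The other lists without an edgeR call were trehalose and glycogen (18 tested, median -0.33), ergosterol (26, median -0.14), sulfate and methionine (29, median -0.21), the zinc regulon (13, median 0.29) and DNA damage (20, median 0.63). They had 0, 0, 4, 3 and 7 members at an unadjusted p under 0.05 and 0, 0, 0, 1 and 1 DESeq2 calls in that order. Glycolysis had a median of -0.45 over 22 genes, with PDC6 its single call, and gluconeogenesis with the glyoxylate cycle had 0.66 over 21, with ADY2 its single call. Both calls were higher, against 1.81% of all ORFs called higher.

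Histone genes gave 0 edgeR calls among 11 tested, with 2 at an unadjusted p under 0.05 and 2 DESeq2 calls. The H4 gene HHF1, which pairs with the H3 gene HHT1 at a locus on chromosome II, came closest, with 1540.4 and 1601 RPKM in H3H113N-dCtr1, against 676 and 761 RPKM in dCtr1 (log2 0.92 ± 0.25, adjusted p = 0.058). HHT1 was at 0.29 (adjusted p = 0.79), and the other H3 and H4 pair, HHT2 and HHF2, was at -0.46 (adjusted p = 0.47) and -0.32 (adjusted p = 0.68). Of the H2A and H2B genes, HTB2 was at -0.79 (adjusted p = 0.081), HTA2 at -0.53, HTB1 at -0.49 and HTA1 at 0.39, and the variant HTZ1 was at -0.11 (adjusted p = 0.93). The copies of H4 share sequence, with 78.7% of the windows of HHF1 and HHF2 unique, so part of their reads cannot be assigned.

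**Figure D5:**
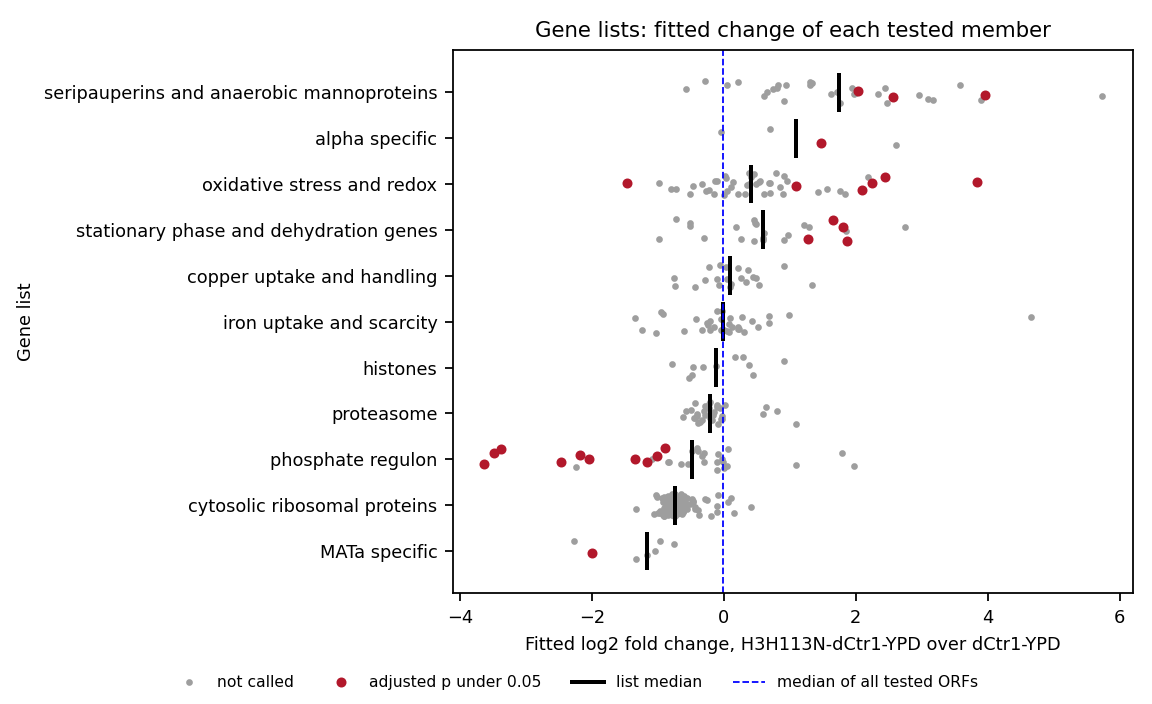
Fitted log2 fold change, H3H113N-dCtr1-YPD over dCtr1-YPD, of each tested member of 11 gene lists, with called members in red, the list median as a black bar and the median of all tested ORFs as a dashed line. Of the lists shown, the seripauperins have the highest median, 1.74, and the MATa-specific genes the lowest, -1.17, while the copper list is centred near 0.10 with no call.

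The H3H113N effect could be set beside the same contrast with CTR1 intact, where 82 of 6592 ORFs were called (1.24%), 69 higher (1.05%) and 13 lower (0.197%). Both comparisons called 35 ORFs, which is 24.3% of the 144 and 42.7% of the 82, and all 35 had the same direction. The comparisons share no library. The difference between the effects, tested as an interaction in the same model, gave 0 calls in edgeR (0%), with a smallest adjusted p of 0.19. At an unadjusted p under 0.05 there were 149 ORFs, fewer than the 329.6 expected if no ORF differed. The 0 calls thus do not show that the effects are alike. DESeq2 gave 15 calls (0.228%). Of those 15, 14 lie on chromosome III, as do 16 of the 20 smallest p-values in edgeR, and the median difference of the ORFs of chromosome III was 1.03.

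BNA2, which opens the synthesis of NAD from tryptophan, was the 1 DESeq2 call outside chromosome III. It had 34.2 and 44.6 RPKM in H3H113N-dCtr1, against 19.5 and 6.42 RPKM in dCtr1, and 22.3 and 28.6 RPKM in H3H113N-YPD, against 1.21 and 1.86 RPKM in WT-YPD. The log2 fold change was 1.47 (adjusted p = 0.027) with the deletion and 3.80 (adjusted p = 0.00015) without it, a difference of -2.33 (edgeR adjusted p = 0.24). Both histone mutant strains were at similar levels, and dCtr1 was above WT. An overlapping ORF, YJR079W, shares its reads. The DNA damage gene HUG1, looked up after its values were seen, had a like pattern, with 74.4 and 96.0 RPKM in H3H113N-dCtr1, against 50.2 and 42.2 RPKM in dCtr1, and 76.2 and 98.4 RPKM in H3H113N-YPD, against 12.6 and 6.58 RPKM in WT-YPD. Its difference of -2.31 had an edgeR adjusted p of 0.38, and the ribonucleotide reductase gene RNR3 was at 0.63 (adjusted p = 0.39) here. PHO5 and AGA2 were called with the deletion and not without it, and their differences of -1.98 and -2.00 had unadjusted p-values of 0.005 and 0.0059 and an adjusted p of 1 in edgeR, so a difference between the effects was not shown for either.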

How the data were processed

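RNA was measured as poly(A)+ libraries read single-end at 50 nt, per the labels' protocols. The deposited tables give, for each ORF and library, read counts and RPKM made by the authors. RPKM recomputed from the deposited counts and ORF lengths equalled the authors' values to within a relative difference of 3.8e-09. Reads were aligned with TopHat2 2.0.9 to R64 (sacCer3), per the submitters' processing notes. The kit keeps strand, but whether counting used it is not given in the sources used here, so overlapping ORFs may share reads.

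Samples were grouped by labelled genotype, medium and treatment. The counts of 26 libraries in the 12 replicated groups were fitted together with edgeR 4.0.16 (R 4.3.3; TMM scaling, glmQLFit, 1 mean per group), keeping the 6592 of 6692 ORFs whose mean RPKM reached 1. This gave 14 residual degrees of freedom and a common biological coefficient of variation of 29.5%. Contrasts were H3H113N-dCtr1 over dCtr1, H3H113N over WT and their difference, with Benjamini-Hochberg adjustment over all tested ORFs at 0.05. Called means past that threshold, and fold changes are fitted ones. The count ratios given for ORFs with at most 3 reads in the dCtr1 pair have 95% intervals that cover counting error only. The script was tested on simulated data.

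Alternatives were limma 3.58.1 on log2(RPKM + 1) and log2(RPKM + 0.1), DESeq2 1.42.0, other scalings and filters, other sets of libraries, a replicate block, and leaving out each library. Chromosomes were centred by adding each library's median deviation of each chromosome to the fit's offsets. The unique share of a gene is that of its 50-base windows found once in R64.

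Named genes were the 12 largest called rises and falls with a mean RPKM of at least 10 in the higher group and no overlap between libraries, called members of each list and key members of each list. The 12 falls and 12 rises, the members and the lists were chosen with earlier results of these data known. Genes outside the rule were named after their values were seen: THI4, THI11, THI12, THI13, PHO3, PHO8, PHO90, PHO91, VIP1, PHO87, GIT1, NPP1, CDC10, HUG1, SER33 and HIS4.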

Additional observations from a re-analysis of the deposited data

How the results depend on the processing

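The 144 calls of H3H113N-dCtr1 over dCtr1 became 1 with the 4 compared libraries alone, 293 in DESeq2, 36 with chromosomes centred, 38 without the ORFs of chromosomes III and V (an alternative added after seeing the data) and 9 to 21 with a library left out, where the lone library is assumed to vary like the other groups. The difference between the H3H113N effects gave 15 calls in DESeq2 and 0 to 1 with a library left out, the 1 without dCtr1-YPD replicate 2. The median of chromosome III (1.11) was 1.10 with median-ratio size factors, 1.30 with library totals, 1.11 with a mean RPKM of at least 5 and 1.08 to 1.15 with a library left out. That of chromosome V (0.68) was 0.87 with library totals and 0.66 to 0.74 with a library left out. The cause was not tested.

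Replicate numbers are shared by the groups, and no label ties them to a shared culture or day. Same-numbered deviations correlated at 0.20 between H3H113N-dCtr1 and dCtr1, 0.62 between H3H113N and WT, -0.44 between dCtr1 and H3H113N, -0.43 between dCtr1 and WT, -0.06 between H3H113N-dCtr1 and H3H113N, and -0.12 between H3H113N-dCtr1 and WT, so the numbers were not taken as pairs. A fit with a replicate block called 138 ORFs for H3H113N-dCtr1 over dCtr1 and 0 for the difference, and of 116 named genes 4 lost their call.

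Signs turned for these named genes. With chromosomes centred, TRX3 was -0.076, FTR1 -0.31, GCN4 -0.50, PHO87 -0.077, CCS1 0.0013 and MF(ALPHA)2 0.020. With limma on log2(RPKM + 1), log2(RPKM + 0.1) and, where 3 values are given, library totals, CCS1 was 0.14, 0.15 and 0.15, HTZ1 0.087, 0.088 and 0.093, MF(ALPHA)2 0.14, 0.15 and 0.14, and COX5B 0.065 and 0.068. With 1 library left out, CCS1 ranged from -0.21 to 0.083, FET3 from -1.98 to 0.28, FTR1 from -0.10 to 1.202, FIT2 from -1.68 to 0.52, COX5B from -0.90 to 0.64, CYT1 from -0.22 to 0.91, TIR1 from -0.031 to 2.15, SPO11 from -0.031 to 0.98 and MF(ALPHA)2 from -0.20 to 0.093. Of these genes, TRX3 was the single one called in the comparison.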
